A study of Caenorhabditis elegans with 59 samples.

Results

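In sterile Caenorhabditis elegans adults of 2 strains, 67 genes had less mRNA 48 h after the start of HSF-1 depletion, and auxin and mock means that lay within 0.5 of each other on the log2 scale at 8 h. They were picked from 15364 genes by their own values. The mean log2 CPM (read counts scaled to a common library size) with auxin had to be at least 0.6 under the mean with mock treatment at 48 h in both strains, the 8 h difference had to lie within 0.5 of 0 in both, and the mean over all libraries had to be at least 2. Chaperone, proteasome, collagen, detoxification, C-type lectin, pals, nuclear hormone receptor and sperm protein families were left out by their name prefixes. Without that exclusion the rule took 83 genes. The 8 h and 48 h values of these genes, and any call made on them, are therefore given as a description, and the 24 h libraries and the libraries of fertile animals carry the tests.

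HSF-1 is the transcription factor that drives chaperone genes, both on heat shock and in unstressed animals. In the auxin-inducible degron system, auxin lets the plant E3 ligase subunit TIR1 mark a tagged protein for the proteasome, so that a protein can be removed in adults after normal development. The worm intestine carries out digestion, fat storage, iron storage and yolk production, and it secretes lysozymes and other defence proteins into the gut lumen.

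RNA was sequenced from whole animals that were moved to auxin or to the ethanol solvent (EtOH, the mock treatment) on Day 1 of adulthood, about 120 worms per plate. JTL667 carries glp-1(e2141), a temperature-sensitive allele that leaves adults almost without germ cells. JTL670 carries fem-3(q20), an allele that makes germ cells form sperm and no oocytes, together with unc-119(ed3). Both strains were grown at 25°C for 48 h before treatment and were sampled after 8, 24 and 48 h. They carry hsf-1::aid::gfp at the endogenous locus and have TIR1 driven by the somatic promoter of eft-3 (ieSi57). Fertile animals were JTL611, with the same tag and TIR1 in the wild-type background, and CA1200, with TIR1 and no tag, both grown for 51 h at 20°C and sampled after 8 and 24 h. Every group had 3 libraries, except auxin-treated JTL667 at 48 h with 2. Neither sterile background had a strain without the degron, so HSF-1 loss and other actions of auxin cannot be told apart in JTL667 and JTL670. RNA of whole animals also cannot separate fewer cells of a type from less RNA per cell.

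The 35 libraries of the sterile strains had 9131588 to 19964797 reads on listed genes, and the 3 reads taken as the detection floor correspond to 0.153 to 0.366 CPM. Titles and treatment tags name opposite treatments for 18 of these libraries, and groups follow the titles. Under the titles, the median of 6 HSF-1-dependent chaperone genes was lower with auxin in 17 of 17 same-numbered pairs of libraries, by 0.63 to 1.52 on the log2 scale. Under the tags, the 48 h medians of the genes described here would be -0.19 in JTL667 and 0.34 in JTL670, so the 48 h result rests on the titles. The mRNA of hsf-1 itself, on which the degron does not act, lay between 15.5 and 31.6 CPM in JTL667 and between 36.8 and 71.7 CPM in JTL670 over all groups. One mock library of JTL667 at 24 h, replicate 1, had the fewest reads and stood apart from its replicates. Results for acox-3 and cpr-4 at 24 h are also given without it. Ranges over single libraries left out are given for the 24 h median of the genes described here and for their contrast between mock-treated strains. Values of most other single genes in JTL667 at 24 h are given only with it. Intestinal markers were present in both strains, whereas the summed sperm markers reached at most 21.2 CPM in JTL667 at 24 h and 48 h, against 2671 CPM or more in JTL670.

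At 48 h, 67 of 67 genes were lower with auxin in both same-numbered pairs of JTL667 libraries, and 66 or 67 in the 3 pairs of JTL670. The rule required a mean fall over these same libraries, so this largely follows from the choice. The median of the 67 genes was 3.800 and 4.24 log2 CPM in the auxin libraries of JTL667, against 5.13 to 5.42 in its mock libraries. In JTL670 it was 2.33 to 2.41 with auxin and 3.31 to 3.37 with mock treatment. The median difference was -0.88 in JTL667 and -0.88 in JTL670, where all genes tested had medians of 0.00 and 0.02. Every auxin library lay below every mock library for 59 of the 67 genes in JTL667 (12.7% of the 14269 genes tested) and for 54 in JTL670 (12.6%). The linear model called 31 members lower in JTL667 (2.05% of all genes tested were, and 3.01% were called higher) and 32 in JTL670 (1.35%, with 1.04% called higher) at a limma adjusted p under 0.05. As the same libraries chose the genes, nothing is read from these counts. C50E3.6 and vit-1 lay just inside the limit, with their smaller fall at -0.60 each, and Y57A10A.14 and cest-31 stood just outside it, also at -0.60 when rounded. Leaving out single 48 h libraries left between 49 and 64 genes that still met the limit in both strains, fewest without auxin replicate 1 of JTL667, and all 67 differences stayed below 0.

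**Figure D1:**
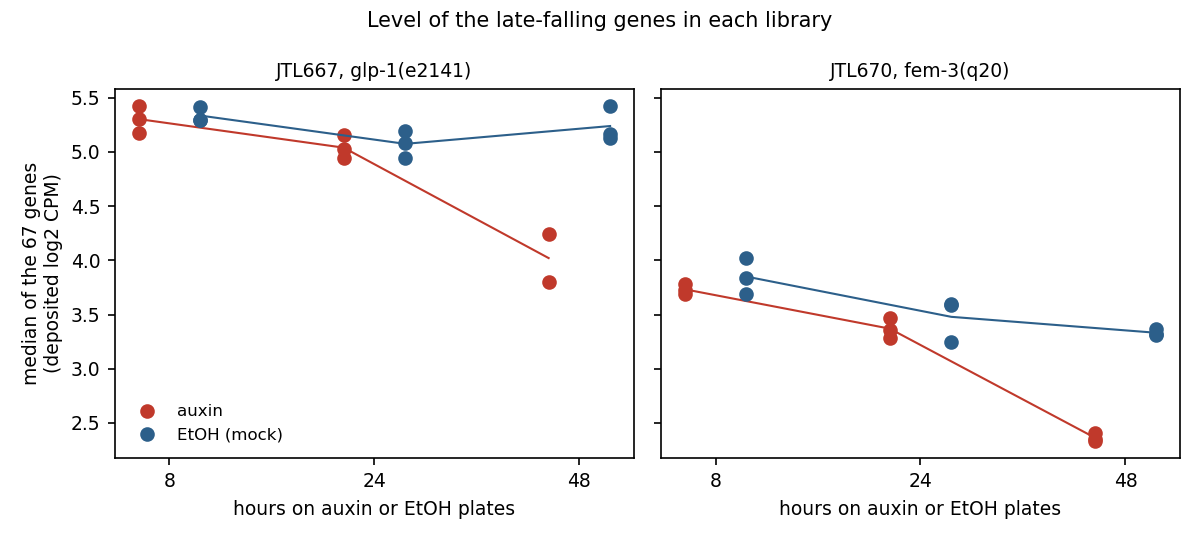
Median log2 CPM of the 67 genes in each library (points) by hours of treatment, auxin left of EtOH at each time, with lines through the group means. At 8 h and 24 h the treatments lie close together, and at 48 h the auxin libraries stand near 4.02 in JTL667 and 2.37 in JTL670, against 5.24 and 3.33 with EtOH.

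The 24 h differences did not choose the genes, although the 24 h libraries counted toward the required mean over all libraries. In both strains the median of these differences was small. The median log2 fold change of the 67 genes was -0.12 in JTL667 and -0.12 in JTL670, against 0.07 and 0.02 over all genes tested. Of the members, 40 had a lower mean with auxin in JTL667 and 45 in JTL670. That is 59.7% and 67.2% of them, beside 41.2% and 49.7% of the 9622 genes with a mean log2 CPM of at least 2. The values of auxin and mock libraries overlapped for most members. Without overlap, 9 were lower and 4 higher in JTL667 (3.9% and 7.01% of all genes tested), and 12 were lower and 4 higher in JTL670 (5.49% and 11.8%). With single libraries left out, the median ran over -0.16 to -0.084 in JTL667, and over -0.17 to -0.032 in JTL670, where it was nearest 0 without auxin replicate 2.

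A single member passed the test at 24 h. The gene is acox-3 (WBGene00019060, chromosome IV, 6245358 to 6248492), which encodes an acyl-CoA oxidase, the enzyme class that opens peroxisomal beta-oxidation of fatty acids. In JTL667 it had 222, 232 and 223 CPM with auxin, against 343, 270.0 and 282 CPM with mock treatment. The groups did not overlap, and the log2 fold change was -0.39 with a standard error of 0.09 (limma adjusted p = 0.020, n = 3 each). For JTL670 at 24 h the values were 103, 94.3 and 93.0 CPM with auxin and 93.4, 95.6 and 83.2 CPM with EtOH, which overlap. The difference between the strains' effects was -0.49 for acox-3, with a limma adjusted p of 0.24 over all genes. Its call was lost without auxin replicate 1 or 3 and without mock replicate 1, where the log2 fold change was -0.29. It was also lost with library quality weights (-0.28, limma adjusted p = 0.053), with only the groups compared (limma adjusted p = 0.83), with the treatment tag (limma adjusted p = 0.86) and with agreeing labels only (limma adjusted p = 0.64). Over all genes tested, 0.308% were called lower and 0.378% higher in JTL667 at 24 h. No member was called in JTL670, where 0.133% of genes were called lower and 0.168% higher. At an unadjusted limma p under 0.05, 10 members were lower and 0 higher there, and 9 were lower and 3 higher in JTL667. Of the 14269 genes tested, 938 in JTL670 and 2276 in JTL667 had such a p in either direction. The median standard error of a member's fold change was 0.26. In simulated data, 14.5% of changes of -0.6 and 42% of changes of -1 were called in JTL667 at 24 h.

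**Figure D2:**
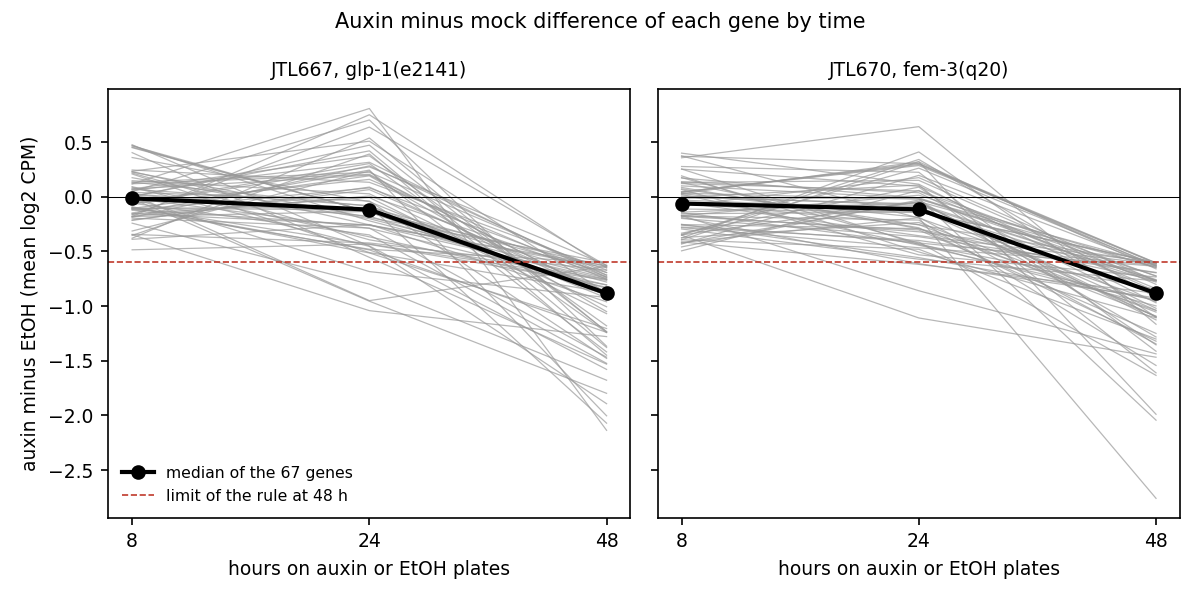
Mean log2 CPM with auxin minus mean with EtOH for each of the 67 genes (grey lines) and their median (black) at 8, 24 and 48 h, JTL667 left and JTL670 right, with the limit of -0.6 that chose them as a dashed line. Medians lie between -0.12 and -0.02 at 8 h and 24 h and at -0.88 at 48 h.

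Digestive and lysosomal enzymes supplied 5 of the 67 genes: lys-1, ilys-5, cpr-1, cpr-4 and acp-6. The lysozyme gene lys-1 (WBGene00003090, chromosome V, 10277904 to 10279056) had 356 and 442 CPM with auxin at 48 h in JTL667, against 966, 909 and 942 CPM with EtOH. In JTL670 it had 74.3, 85.7 and 90.2 CPM with auxin and 214, 187 and 237 CPM with EtOH. At 24 h the lys-1 levels in JTL667 were 1514, 1451 and 1476 CPM with auxin and 857, 1426 and 1412 CPM with EtOH. The 48 h groups were thus well apart in both strains, whereas at 24 h the auxin libraries were not lower. In both strains the lys-1 level was lower at 48 h than at 8 h in both arms. Mock means in JTL667 were 1534 CPM at 8 h and 939 CPM at 48 h, and mock libraries of JTL670 held 396 to 491 CPM at 8 h.

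The acid phosphatase gene acp-6 (WBGene00022245, chromosome IV) was much lower at 48 h than at 8 h in both arms. In JTL667 the 8 h libraries held 1666 to 1964 CPM with auxin and 1645 to 1848 CPM with EtOH. By 48 h these were 343 and 344 CPM with auxin, against 594, 627 and 713 CPM with EtOH. In JTL670 acp-6 stood at 27.7, 31.4 and 27.3 CPM with auxin and 41.4, 42.4 and 57.4 CPM with EtOH at 48 h. The invertebrate-type lysozyme gene ilys-5 had 48 h differences of -0.60 in JTL667 and -1.04 in JTL670.

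The cathepsin B-like protease genes cpr-4 and cpr-1 took other courses. cpr-4 (WBGene00000784, chromosome V) had 366 and 461 CPM with auxin at 48 h in JTL667, against 608, 838 and 726 CPM with EtOH. At 8 h its levels had been 292 to 361 CPM with auxin and 325 to 354 CPM with EtOH, so the later mock libraries were above the earlier ones. At 24 h cpr-4 had 316, 287 and 337 CPM with auxin in JTL670 and 514, 392.5 and 498 CPM with EtOH, without overlap. The log2 fold change there was -0.57 (standard error 0.17, limma adjusted p = 0.23, n = 3 each), and in JTL667 -0.44 (adjusted p = 0.23), or -0.71 without mock replicate 1, where cpr-4 was called (limma adjusted p = 0.022). In JTL670 it was called when the fit held only the groups compared (limma adjusted p = 0.019). For cpr-1, at 48 h, JTL667 had 244 and 348 CPM with auxin and 345, 497 and 580.2 CPM with EtOH, an overlap, while JTL670 had 73.4, 74.0 and 109.8 CPM with auxin and 177, 150.4 and 217 CPM with EtOH.

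Among the other 90 tested genes of the digestive and lysosomal list, 5 were called lower and 2 higher at 48 h in JTL667, and 5 lower and 3 higher in JTL670. Genes of the list that fell enough in both strains had been taken out as members by the same values, so nothing is read from this balance. The same holds for the balances given below for secreted peptides, fatty acid use, metal binding and transporters. The lysozyme gene lys-7 had a log2 fold change of -0.88 in JTL667 (limma adjusted p = 0.0013) and -0.52 in JTL670 (adjusted p = 0.056), whereas cpr-5, a relative of cpr-4, rose by 0.93 in JTL667 (limma adjusted p = 0.025) and 0.91 in JTL670 (limma adjusted p = 0.021).

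Secreted proteins of the defence and stress response lists supplied 4 members. The largest falls of the 4 were those of scl-2 (WBGene00009895, chromosome IV), a gene of the SCP-like extracellular family. At 48 h it had 40.3 and 48.3 CPM with auxin in JTL667, against 144, 175 and 254 CPM with EtOH. In JTL670 it had 6.04, 5.86 and 7.32 CPM with auxin, and 17.4, 18.1 and 24.4 CPM with EtOH. At 24 h scl-2 differed by -0.09 in JTL667 and 0.11 in JTL670, and the groups overlapped in both strains. The infection response gene irg-8 (chromosome V) was more abundant in auxin libraries of JTL670 at 24 h, with 383, 304 and 325 CPM, against 299, 234 and 279 CPM with EtOH, a difference that was not called (limma log2 fold change 0.32). By 48 h irg-8 stood at 147, 152 and 179.9 CPM with auxin and 226, 249.8 and 281 CPM with EtOH. Of the other 55 tested genes of secreted antimicrobial and small peptides, 1 was called lower and 3 higher at 48 h in JTL667, and 2 lower and 1 higher in JTL670. The 3 higher ones in JTL667 were the infection response genes irg-4, irg-5 and irg-6, with log2 fold changes of 2.25, 2.44 and 3.91. Their differences at 8 h were already 2.10, 0.76 and 2.71 in JTL667, and 2.56, 0.80 and 3.59 in JTL670. None of them was called in JTL670 at 48 h, where the log2 fold changes were 0.26, 0.76 and 2.05. The level of irg-6 was low, with a mean log2 CPM of 0.35.

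cld-1 and dod-21 are neighbours on chromosome IV, with 466 bases between them and on opposite strands (12935011 to 12936271 and 12936738 to 12937988). dod-21 takes its name from regulation by the FOXO factor DAF-16. Their levels ran almost in parallel: at 24 h in JTL667 cld-1 had 50.6, 55.7 and 30.9 CPM with auxin and 32.4, 39.4 and 28.5 CPM with EtOH, and dod-21 had 50.1, 55.9 and 35.2 CPM with auxin and 29.3, 39.5 and 31.9 CPM with EtOH. Both were among the 4 members with the highest 24 h differences averaged over the strains, at 0.42 and 0.47 in JTL667, and neither was called. With single libraries left out, these ran over 0.25 to 0.68 for cld-1 and over 0.33 to 0.67 for dod-21, lowest without auxin replicate 2 and highest without auxin replicate 3. At 48 h cld-1 had 3.37 and 3.52 CPM with auxin in JTL667, against 11.8, 9.94 and 6.52 CPM with EtOH. Whether reads are shared between the pair was not tested, so they may not be separate measurements. The same holds for F45D11.14 and the 2 genes that share the symbol F45D11.16 (WBGene00018460 and WBGene00018461), which lie between 1004616 and 1018100 on chromosome II and had the same 48 h differences to within 0.03 (-0.87, -0.88 and -0.90 in JTL667).

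Genes of fatty acid use were acox-3, acs-7 and acox-1.3. At 48 h acox-3 had 134 and 134 CPM with auxin in JTL667, against 233, 234 and 212 CPM with EtOH, and 95.5, 87.5 and 87.3 CPM with auxin in JTL670, against 177, 159 and 157 CPM. The replicates of acox-3 lay close together and its groups did not overlap. The acyl-CoA synthetase gene acs-7 had 61.1, 70.8 and 63.0 CPM with auxin in JTL670 at 48 h and 118, 109 and 112 CPM with EtOH. Levels of acs-7 at 8 h lay on the other side in JTL667, at 27.2, 31.7 and 34.9 CPM with auxin, against 21.8, 23.5 and 22.1 CPM with EtOH. It was the 1 member called at 8 h by limma, higher in JTL667, where 0.245% of all genes were called lower and 0.21% higher (in JTL670 0.203% and 0.021%, and of the members 1 lower and 1 higher at an unadjusted p under 0.05). acox-1.3 differed by -1.24 in JTL667 and -0.77 in JTL670 at 48 h. Of the other 64 tested genes on this list, 6 were called lower and 2 higher at 48 h in JTL667. In JTL670 3 were called lower (acox-1.1, acox-1.4 and acs-14) and 0 higher by limma, with 8 lower and 3 higher at an unadjusted p under 0.05.

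**Figure D3:**
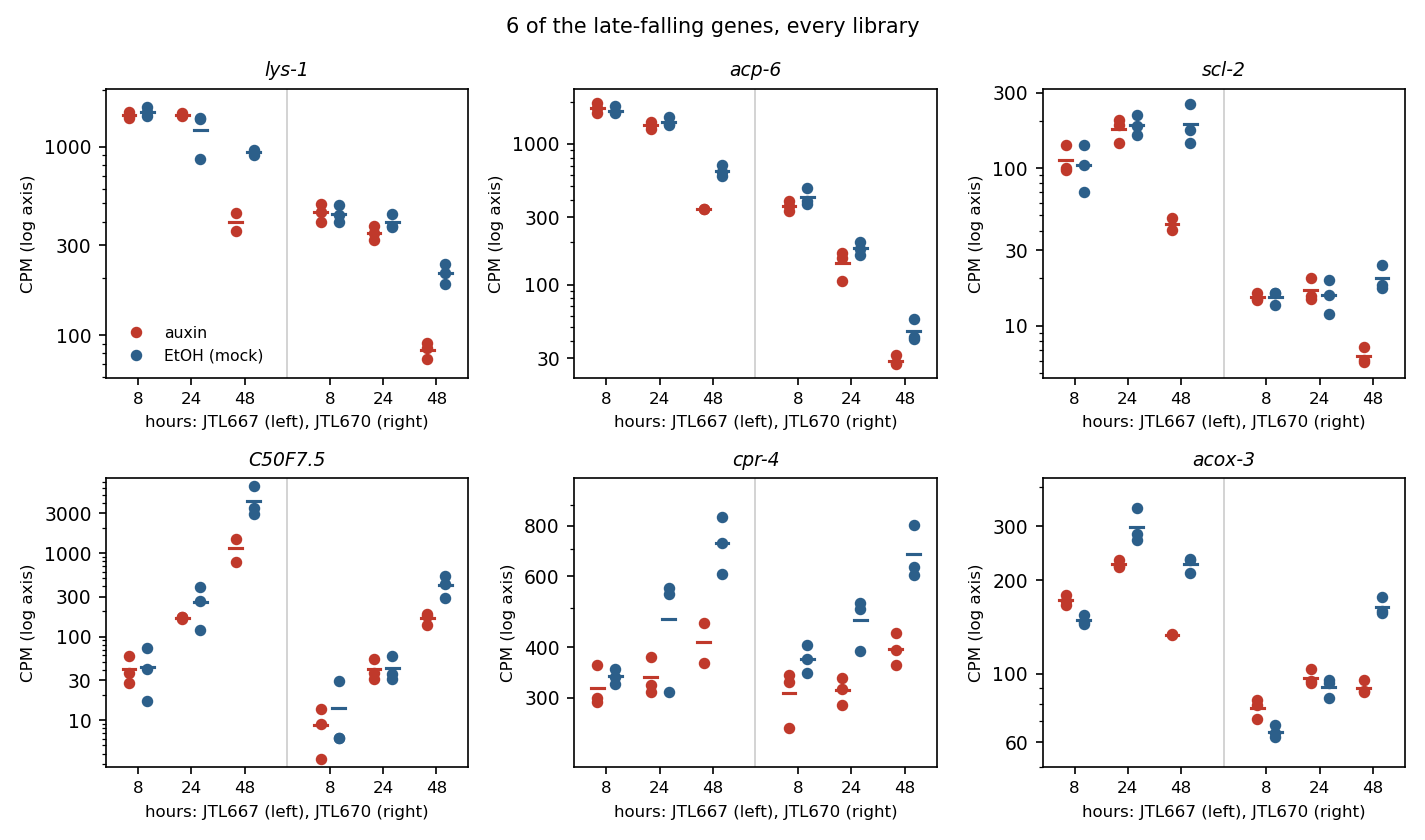
CPM on a log axis in every library (points) with group means (bars) for lys-1, acp-6, scl-2, C50F7.5, cpr-4 and acox-3, auxin left of EtOH at 8, 24 and 48 h, JTL667 at the left and JTL670 at the right of each panel. The 48 h groups do not overlap for any of the 6 genes in either strain. Mock levels are lower at 48 h than at 8 h for lys-1 and acp-6 and higher for C50F7.5 and cpr-4.

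Metal handling was represented by ftn-1, cdr-4, hrg-1 and zipt-2.3, which code for a ferritin that stores iron, a cadmium-responsive protein, a haem transporter and a zinc transporter. ftn-1 (WBGene00001500, chromosome V) had 76.3 and 63.6 CPM with auxin at 48 h in JTL667, against 117, 99.8 and 192 CPM with EtOH. In JTL670 it had 1.90, 3.64 and 1.39 CPM with auxin and 7.49, 6.69 and 6.52 CPM with EtOH, without overlap. cdr-4 showed 31.7 and 30.8 CPM with auxin in JTL667 and 53.6, 63.5 and 43.5 CPM with EtOH at 48 h. hrg-1 was less clear: in JTL667 it had 9.08 and 3.74 CPM with auxin and 11.9, 9.36 and 12.5 CPM with EtOH, and in JTL670 the groups overlapped. Outside the members, 1 of 33 metal-binding genes was called lower and 1 higher at 48 h in JTL667, and by limma 0 in JTL670, with 4 lower and 2 higher at an unadjusted p under 0.05.

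A cation pump and a potassium channel completed the transporter list. The P-type cation ATPase gene catp-3 (chromosome V, 8076012 to 8079916) had 554 and 496 CPM with auxin in JTL667 at 48 h and 1003, 905 and 733 CPM with EtOH. In JTL670 catp-3 stood at 115.4, 114 and 141.9 CPM with auxin, against 177, 212 and 244 CPM with EtOH. twk-42, a potassium channel gene, differed by -0.75 in JTL667 and -0.78 in JTL670. Of the other 284 tested transporters and channels, 3 were called lower and 10 higher at 48 h in JTL667 and 1 lower and 8 higher in JTL670. Over all genes tested, 2.05% were called lower and 3.01% higher in JTL667, and 1.35% and 1.04% in JTL670. Members had been taken out by the same values, so nothing is read from this balance either.

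The members did not share one course with age. The steps between times given here are of group means and were not tested. From 24 h to 48 h, the auxin arm fell by at least 0.6 on the log2 scale for 42 genes in JTL667 and 45 in JTL670, and the median change was -0.97 and -0.94. In the mock arm the median change was -0.16 in JTL667 and -0.21 in JTL670. There 19 and 26 genes fell by at least 0.6, and 15 and 14 rose by as much. In JTL667 these were 28.4% and 22.4% of the members, beside 9.89% and 12.3% of genes with a mean log2 CPM of at least 2. In JTL670 they were 38.8% and 20.9%, beside 5.57% and 5.53%. With auxin, 62.7% of the members in JTL667 and 67.2% in JTL670 fell by as much, beside 14.7% and 8.46% of such genes. As the 48 h libraries chose the genes, the steeper course with auxin is a description of the choice. The movement of the mock arm with age was also wide. From 8 h to 48 h, 38.8% of the members fell by at least 0.6 in mock-treated JTL667 and 26.9% rose by as much. Of genes with a mean log2 CPM of at least 2, 18.2% fell and 12.5% rose by as much. The mock libraries of 8 h and 48 h entered the rule too, so these shares are also a description of the chosen genes.

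In 16 members the mock arm fell by at least 0.6 in both strains between 24 h and 48 h. D1086.3 (WBGene00008390, chromosome V) had 107 and 107 CPM with auxin in JTL667 at 48 h, against 285, 298 and 316 CPM with EtOH, while at 24 h it had 854, 799 and 779 CPM with auxin and 805, 899.7 and 797 CPM with EtOH. epic-1 had 321 and 297 CPM with auxin at 48 h in JTL667 and 572, 568 and 506 CPM with EtOH, after 1247, 1022 and 1117 CPM with auxin and 1469, 1283 and 1621 CPM with EtOH at 24 h. Both genes were thus lower at 48 h than at 24 h in either arm, and lowest with auxin. vit-1, which encodes a yolk protein, took more reads than any other member and stood at the limit of the rule. It had 965 and 1090.2 CPM with auxin in JTL667 at 48 h and 1932, 1632 and 1319.8 CPM with EtOH, and as vit-1 closely resembles vit-2 its reads cannot be assigned with certainty.

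In 7 members the mock arm rose by at least 0.6 in both strains over the same interval. C50F7.5 (WBGene00016845, chromosome IV, 7726719 to 7727639) reached 3493, 6263 and 2951 CPM in mock-treated JTL667 at 48 h, where auxin libraries had 789 and 1479 CPM. At 8 h C50F7.5 had been at 36.4, 28.1 and 58.9 CPM with auxin and 72.4, 41.4 and 16.8 CPM with EtOH. lips-11, a lipase-related gene on chromosome II, had 24.4 and 27.5 CPM with auxin in JTL667 at 48 h and 107, 122.6 and 114 CPM with EtOH. At 24 h, lips-11 stood at 18.8, 12.6 and 12.2 CPM with auxin and 9.16, 10.5 and 5.52 CPM with EtOH, so that the auxin libraries were the higher ones and did not overlap the mock libraries. The limma log2 fold change there was 0.81 and was not called. The other genes of this class were F14H12.3, oac-31, Y68A4A.13 and the nearby T26H5.9 and T26H5.10.

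A further 12 members fell by at least 0.6 with auxin in both strains between 24 h and 48 h while the mock arm moved by less than 0.6 in both. srlf-7 had 1052 and 1021 CPM with auxin at 48 h in JTL667 and 1737, 1718 and 2559.5 CPM with EtOH, after 2243, 2617 and 2089 CPM with auxin and 3251, 2379.6 and 1743 CPM with EtOH at 24 h. catp-3, ftn-1, irg-8, scl-2, acox-1.3 and the galectin gene lec-10 were also in this class. The remaining 32 members met none of these 3 descriptions, among them lys-1, cpr-4 and acox-3.

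**Figure D4:**
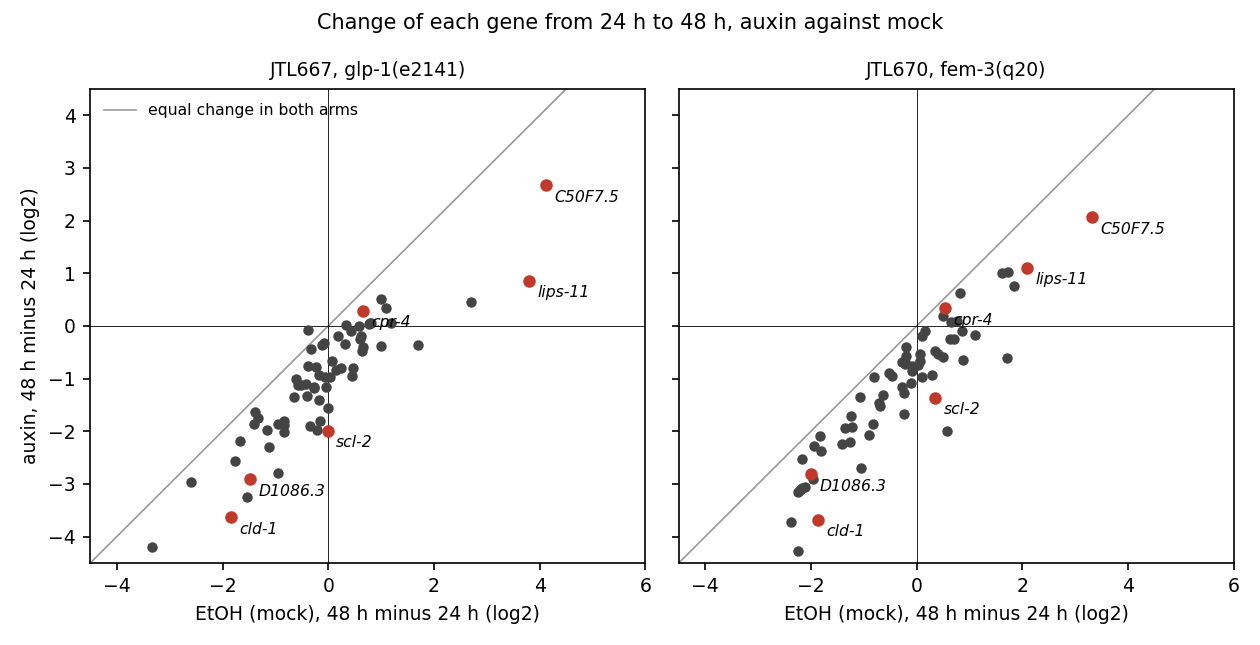
Change of each of the 67 genes from 24 h to 48 h on the log2 scale, auxin on the vertical and EtOH on the horizontal axis, JTL667 left and JTL670 right, with a line of equal change and 6 genes in red. Nearly all points lie under the line, from genes that fell in both arms (cld-1, D1086.3) to genes that rose in both (C50F7.5).

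The deepest falls at 48 h, averaged over the strains, were those of oac-20, Y105C5A.13, scl-2, comt-4, lips-11 and C50F7.5. oac-20, an O-acyltransferase homologue on chromosome V, had 1.23, 0.742 and 1.07 CPM with auxin in JTL670, against 13.5, 5.25 and 5.81 CPM with EtOH, a difference of -2.76. In JTL667 its 48 h groups overlapped, at 0.435 and 2.2004 CPM with auxin and 2.35, 1.96 and 3.99 CPM with EtOH. At 24 h oac-20 had 2.35, 4.15 and 4.05 CPM with auxin in JTL667 and 7.45, 6.82 and 7.19 CPM with EtOH, without overlap, although the log2 fold change of -1.04 was not called. comt-4, of the catechol O-methyltransferase family, had 38.9 and 33.0 CPM with auxin in JTL667 at 48 h and 81.5, 76.8 and 97.5 CPM with EtOH. In JTL670 all comt-4 values at 48 h were low, from 0.297 to 0.728 CPM with auxin and from 1.18 to 4.495 CPM with EtOH. For Y105C5A.13 the 48 h libraries of JTL670 held 3.13, 3.19 and 2.78 CPM with auxin and 12.8, 11.7 and 12.8 CPM with EtOH.

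The lowest 24 h differences over both strains belonged to grsp-1, oac-20, sdz-6, C45B2.1, the pseudogene WBGene00021018 and cpr-4. grsp-1 had 10.5, 4.70 and 8.58 CPM with auxin at 24 h in JTL670 and 16.1, 12.3 and 22.002 CPM with EtOH. sdz-6 showed 7.95, 5.84 and 5.70 CPM with auxin and 11.99, 11.03 and 12.3 CPM with EtOH there, without overlap. The log2 fold changes were -1.11 for grsp-1 (standard error 0.42, limma adjusted p = 0.45) and -0.86 for sdz-6 (standard error 0.27, limma adjusted p = 0.28), and both passed the test when only the groups compared were fitted (limma adjusted p = 0.017 and 0.025). In JTL667 at 24 h the auxin and mock values of grsp-1 did not overlap either, at 57.3, 46.3 and 45.2 CPM with auxin and 104.2, 57.6 and 63.4 CPM with EtOH.

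Members of other roles had falls of the same order. The galectin gene lec-10 had 31.4 and 45.0 CPM with auxin in JTL667 at 48 h, against 80.7, 111.6 and 69.1 CPM with EtOH, and 14.2, 15.4 and 17.8 CPM with auxin in JTL670, against 28.2, 26.8 and 29.9 CPM with EtOH. The semaphorin gene smp-2, of a family of guidance molecules, had 47.6 and 65.5 CPM with auxin in JTL667 and 87.01, 111.2 and 82.2 CPM with EtOH. Neither gene's groups overlapped in JTL667. In JTL670 smp-2 had 13.8, 13.5 and 14.3 CPM with auxin, against 18.01, 23.9 and 22.2 CPM with EtOH. nas-3, an astacin-type protease gene, differed by -1.45 in JTL667, where the auxin libraries spread from 2.39 to 9.98 CPM and overlapped the mock range of 9.60 to 19.4 CPM. The tyrosine aminotransferase gene tatn-1 also overlapped in JTL667, at 9.73 and 24.1 CPM with auxin and 17.4, 29.97 and 43.6 CPM with EtOH. The pseudogene WBGene00021018 had 25.8 and 26.04 CPM with auxin in JTL667 at 48 h and 40.2, 36.5 and 48.3 CPM with EtOH.

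Markers of tissues were summed over each list, leaving out the members. The 10 remaining intestinal markers summed to 2609 to 2838 CPM with auxin in JTL667 at 48 h, against 2211 to 2872 CPM with EtOH, and to 1093 to 1189 CPM with auxin in JTL670, against 807 to 965 CPM with EtOH. Single intestinal markers went both ways. The filament genes ifb-2 and ifc-2 were called higher in JTL667 (log2 fold changes 1.70 and 1.66) and in JTL670 (1.14 and 1.43), pho-1 was called higher in JTL667 (1.14), and the esterase gene ges-1 was called lower in JTL667 (-0.54, limma adjusted p = 0.023). The protease gene asp-1 had -0.95 in JTL667 and -0.59 in JTL670 and was not called. The part of these markers in the fall of the members was not tested. The 10 body wall muscle markers summed to 2815 to 2848 CPM with auxin in JTL667, against 3045 to 3840 CPM with EtOH, and to 993 to 1233 CPM with auxin in JTL670, against 1248 to 1647 CPM with EtOH. Every auxin library had a lower muscle sum than every mock library in both strains. The same held for the 11 oogenic germline markers, at 45.0 to 60.4 CPM with auxin against 63.5 to 72.6 CPM in JTL667. In JTL670 these summed to 1360 to 1512 CPM with auxin, against 1603 to 1666 CPM with EtOH. Of the other lists, excretory cell and sperm sums were lower without overlap in JTL667 only. Intestine, neuron and sperm sums in JTL670 and coelomocyte sums in JTL667 were higher without overlap. The part of these sums was not tested either. Single members are known from other tissues, such as the titin-like ttn-1 of muscle and unc-31, which acts in neuropeptide release. They differed by -0.64 and -0.69 in JTL667 and by -0.63 and -0.60 in JTL670.

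Most members were more abundant in germline-less than in sperm-bearing mock animals. These mock libraries counted toward the mean log2 CPM of at least 2 that the rule required. A gene low in either strain could thus pass through the other, and the contrast is given as a description. At 24 h, 51 of 67 were called higher and 5 lower in mock-treated JTL667 against mock-treated JTL670 (33.8% of all genes tested were called higher and 45.7% lower). The median log2 fold change of the members was 1.72, against -0.36 for all genes and -0.18 for genes with a mean log2 CPM of at least 2. With single libraries left out, the members' median ran over 1.59 to 1.75, with 50 to 52 called higher and 4 to 5 lower. Centring every library on its median moved the median of all genes to 0.64 and that of the members to 2.71, with 62 members called higher and 1 lower (49.0% of all genes were called higher and 32.4% lower). The sperm markers summed to at most 5.77 CPM in JTL667 and to at least 2949 CPM in JTL670. Sums of somatic markers were mostly higher in mock-treated JTL667 too. Their medians were 2738 against 1311 CPM for intestine, 5233 against 1967 CPM for body wall muscle and 956 against 868 CPM for somatic gonad. The somatic gonad ranges overlapped, and the part of cell composition in the members' contrast was not tested. Among the members ftn-1 was the most different, with a log2 fold change of 4.56 (143, 125 and 138 CPM in JTL667 and 11.5, 4.01 and 3.803 CPM in JTL670). acox-1.3 went furthest the other way, at -3.63. cpr-4 had a log2 fold change of -0.03 (limma adjusted p = 0.87), and of 0.96 after centring. The auxin effects of the 2 strains at 24 h did not differ for any member by the limma test of the difference (0.014% of all genes were called higher and 0.021% lower). At an unadjusted limma p under 0.05, 4 members were lower and 5 higher, and 1245 of the 14269 genes tested passed in either direction.

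In fertile animals 52 members were listed at 8 h and 50 at 24 h, of which 49 were tested. None was called in JTL611 with auxin against CA1200 with auxin at 24 h (0.0% of genes called). In simulated data, 6.5% of changes of -0.6 and 44.5% of changes of -1 were called in this comparison, so a lack of calls says little. The paper's own edgeR test did report genes changed after 24 h of depletion in JTL611. At an unadjusted limma p under 0.05, 1 member was lower and 2 were higher, and 324 of the 10245 genes tested passed in either direction. The median log2 fold change of the members was 0.02. Against mock-treated JTL611 the median was -0.17 at 24 h, with 0 called and 1 lower and 0 higher at an unadjusted limma p under 0.05 (0.0% of genes called), and in CA1200 auxin against EtOH gave -0.06, with 0 called and 2 lower and 1 higher (0.0% of genes called lower and 0.00976% higher). At 8 h the medians were 0.13, 0.04 and -0.02, and 0 members were called in each of the 3 comparisons by limma (0.0% of genes called lower in each, and 0.0186% higher in CA1200), with 3, 2 and 5 members at an unadjusted p under 0.05. At 24 h, 1 member was lower and 1 higher without overlap in JTL611 against CA1200, both with auxin (3.43% and 2.95% of all genes), and 1 was lower in JTL611 with auxin against its mock (4.66%, with 3.08% of genes higher). At 8 h these counts were 2 lower and 5 higher (5.86% and 4.86%) and 5 lower and 1 higher (2.51% and 2.34%). Fertile animals were not sampled at 48 h, so the late fall itself could not be looked for in them. With replicate numbers as a block, which the libraries of this comparison share, D1086.3 was called higher in JTL611 with auxin than in CA1200 with auxin at 24 h (limma log2 fold change 0.98, adjusted p = 0.032), 1 of 8 genes called among the 10245 tested with the block, 5 of them higher. It had 21.5, 15.2 and 10.1 CPM in JTL611 with auxin and 10.5, 6.36 and 6.29 CPM in CA1200 with auxin, while mock-treated JTL611 had 15.8, 8.404 and 10.3 CPM. That is the opposite direction to its 48 h difference in the sterile strains.

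**Figure D5:**
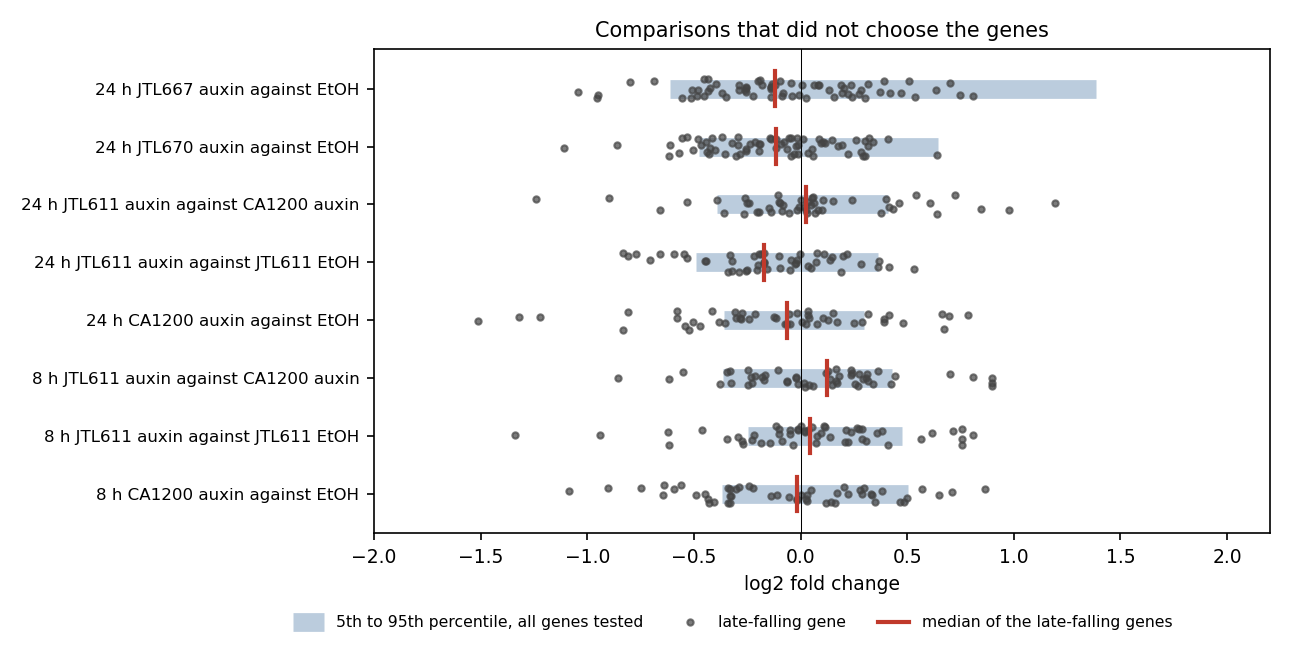
Log2 fold changes of the members (points, with small vertical scatter for legibility) in 8 comparisons that did not choose them, their median (red) and the 5th to 95th percentile of all genes tested (bars). Medians lie between -0.17 and 0.13, and single genes spread to both sides in every comparison.

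In CA1200, which has no degron, cpr-4 had lower values with auxin that did not pass the test. At 8 h it had 248, 303 and 222 CPM with auxin, against 805, 344 and 395 CPM with EtOH. In JTL611 at 8 h it had 195, 172 and 244 CPM with auxin, against 487, 398 and 298 CPM with EtOH. The groups did not overlap in either strain, the log2 fold changes were -0.90 and -0.94, and neither passed adjustment (limma adjusted p = 0.70 and 1.0, unadjusted p = 0.0094 and 0.0075). Without mock replicate 1, the CA1200 value was -0.53. At 24 h CA1200 had 549, 554 and 630.1 CPM with auxin and 722, 631 and 800.2 CPM with EtOH. Among the members tested, cpr-4 was 1 of 3 that were lower without overlap in CA1200 with auxin at 8 h (7.69% of all genes were, and 6.38% were higher) and 1 of 2 at 24 h (1.54%, with 2.04% higher).

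The members were unevenly spread over the genome. Chromosome V held 28 of the 67 genes (41.8%), against 18.2% of the 9622 genes with a mean log2 CPM of at least 2, and chromosomes I and III held 3 and 2, against 17.8% and 17.4%. Chromosomes II, IV and X held 8, 14 and 12 members (11.9%, 20.9% and 17.9%), against 16.3%, 17.5% and 12.6% of these genes. A gene low in either strain could reach that mean through the other, and could hardly fall further where it was low. The part of this in the uneven spread was not tested. Of the 67, 66 are annotated as protein-coding in WBcel235. A total of 27 fell into one of the 28 gene lists used. Ribosomal, respiratory chain, secretory pathway, histone and sperm lists held 0 members, as did others such as those of F-box adaptors and transcription factors. Members were 67 of the 9622 genes, so 0 in a single list says little. Sperm genes had almost no reads in JTL667 and could hardly fall there.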

How the data were processed

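The authors deposited log2 CPM values per gene in 3 tables, 1 for the sterile strains and 1 each for fertile animals at 8 h and 24 h, with a small prior added before the log. The authors aligned reads of poly(A) libraries from a directional kit with STAR to Ensembl WBcel235, counted them on genes with featureCounts and normalized the deposited values with edgeR, after a filter on low CPM. With log and prior undone, 100% of values were whole reads within 0.05, and CPM in the text are these values. The tables were normalized separately, and tests stayed within a table. One deposited column of the authors' own comparisons was not used.

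Genes with at least 1 CPM in 25% of the libraries were tested (14269, 10739 and 10245) on the deposited log2 values, with 1 mean per group over all groups of a table (limma 3.58.1, trend; R 4.3.3; Python 3.11.15), two-sided, with Benjamini-Hochberg adjustment over all genes tested and a limit of 0.05. The study's supplement calls the libraries of the CA1200 time course biological replicates. For the other strains, no statement that libraries came from separate cultures was found in the labels, and p-values there measure the spread between them, which may be technical. Floors cover counting error only. Libraries with the same number deviated together (every correlation over 0.1) in JTL670 at 24 h, in the 3 fertile comparisons at 24 h and between JTL611 and CA1200 with auxin at 8 h, which comes from the data and not from the labels. The fits were tested on simulated data with 200 changed genes.

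The members, the 28 gene lists and the marker lists were chosen with earlier results of these data known. Genes named are the members called at 24 h, the 6 lowest and 4 highest at 24 h, the 6 lowest at 48 h, the 6 most abundant, up to 4 of each list with 3 or more members, and those next to the 48 h limit. ilys-5, D1086.3, lec-10, smp-2, nas-3, tatn-1, F41E6.5, ttn-1 and unc-31, the neighbouring genes, the single intestinal markers, the genes named only as members of a class and the genes of lists outside the members were named after their values were seen. Coordinates are from Ensembl release 115 of WBcel235. Promoter sequences were not used here. Alternatives were pseudocounts of 0.1 and 1, no filter, only the groups compared, a replicate block, centring, library quality weights, precision weights, the treatment tag, agreeing labels, each library left out and other limits of the rule. Those for the 48 h differences were added after seeing the data.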

Additional observations from a re-analysis of the deposited data

Results flagged for a closer look

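F41E6.5 (chromosome V) differed between auxin and mock treatment in opposite directions in the 2 strains at 24 h, with no overlap of the groups in either. It had 26.4, 26.7 and 25.9 CPM with auxin in JTL667, against 20.0, 22.9 and 22.6 CPM with EtOH, a log2 difference of 0.27. In JTL670 it had 4.29, 5.23 and 4.44 CPM with auxin, against 5.84, 5.98 and 7.33 CPM with EtOH, a difference of -0.44. The difference between the strains' effects was 0.72 with a standard error of 0.28 (limma adjusted p = 0.53 over all genes).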

How the results depend on the processing

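Of the 67 members, the number called lower at 24 h in JTL667 was 1, and it was 2 with library quality weights (cpr-4 and WBGene00021018, and not acox-3), 0 with only the groups compared, 0 with the treatment tag, 0 with agreeing labels only and 0 to 2 with single libraries left out (0 to 1 called higher). In JTL670 it was 0, and 3 with quality weights, 1 with precision weights and 3 with only the groups compared. The share called lower in JTL667, 1.49%, was 0% with a 48 h limit of -0.8 and 2.63% with an 8 h range of 0.3. With the tag in place of the title, the 24 h medians were 1.28e-05 in JTL667 and 0.054 in JTL670, and the 48 h medians -0.19 and 0.34, so the direction of the 48 h fall in JTL670 depends on the titles. The 48 h median of JTL670 was -0.92 with agreeing labels and -0.77 on log2 of CPM plus 1. Between mock-treated strains, centring gave 1 member lower and a median of 2.71, and reversed cpr-1 (0.33) and acs-7 (0.53). The tag gave 3 and agreeing labels 2 members lower there. With the replicate block, 1 member was called higher in JTL611 against CA1200 with auxin at 24 h, and no other call of a member changed. Over all genes, limma called 8 there with the block and 0 without it (324 at an unadjusted p under 0.05). With single libraries left out, the median at 24 h ran over -0.094 to 0.19 in JTL611 against CA1200, over -0.28 to -0.055 in JTL611 against its mock and over -0.25 to 0.0022 in CA1200, and at 8 h over 0.022 to 0.10, -0.081 to 0.093 and -0.15 to 0.060. Quality weights did not converge in the tables of fertile animals and were not run there. Over all genes, the calls at 24 h numbered 98 in JTL667 and 43 in JTL670. They were 229 and 301 with quality weights, 0 and 484 with only the groups compared, 8 and 0 with the tag and 5 and 299 with agreeing labels, and in JTL670 253 on log2 of CPM plus 1 and 439 with precision weights. Leaving out single libraries gave 53 (without mock replicate 1) to 1101 (without mock replicate 2) in JTL667 and 14 to 30 in JTL670. With the block, the counts were 119 and 60.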
